A study of Mus musculus with 9 samples.

Results

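The cytosolic and mitochondrial heat shock chaperones were followed in mouse melanoma tumours through 10 genes: Hsph1, Hspa1a, Hspa1b, Hspa8, Hsp90aa1, Hspb1, Dnaja1, Dnajb1, Hspe1 and Hspd1. They were chosen by name, with earlier results of these data known. Their probes had to give a tumour signal well above background on 3 or more of the 9 arrays, which left 17 probes of 26871 kept in all, and every one of the 17 candidate probes passed that filter. The kept probes covered 9 genes of their own among 13085 named genes. Hspa1b had no kept probe of its own. It was listed only at 2 probes with accessions of both Hspa1a and Hspa1b, so these near-identical genes cannot be told apart there. The other 2 Hspa1a probes list no accession of Hspa1b. Whether they also bind Hspa1b RNA was not tested. Signals of single probes are not comparable between genes, and levels below are always set against the same probe on other arrays.

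The tumours were grown from 3 variants of B16-F10, a transplantable mouse melanoma line, named after L-histidine decarboxylase (HDC), which converts histidine to histamine. The capacity to make histamine is diminished in HDC-A, unmodified in HDC-M and enhanced in HDC-S. Each group had 6 tumours, whose RNA was paired at random into 3 pools of 2 tumours, and each pool was labelled with Cy5 and hybridised together with Cy3-labelled RNA of HDC-M cells grown in culture, a common reference for all arrays. All groups share the B16-F10 background and this reference. Each group is 1 line variant, so line and histamine capacity cannot be told apart, and the host animals are not given in the sources used here. Each value is a log2 ratio, tumour pool over cultured reference, and a p-value measures the spread between pools only. In bulk tumour RNA, fewer cells of a type and less RNA per cell cannot be told apart.

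Heat shock chaperones bind unfolded proteins and help them to fold, and most are induced by the transcription factor HSF1 when unfolded protein accumulates. Hsp70 proteins work in a cycle driven by ATP, in which J-domain proteins deliver clients and start ATP hydrolysis and Hsp110 proteins exchange the nucleotide, while Hsp90 matures kinases and steroid receptors and small heat shock proteins hold clients in a soluble state. In mitochondria, Hsp60 and its lid Hsp10 form a folding chamber. Melanoma and other tumour cells are known to lean on these proteins to carry misfolded and mutant proteins.

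The promoters are shown because several of these genes are known targets of HSF1, which binds the heat shock element, a run of short units in alternating orientation. RefSeq windows of GRCm38.p6, reaching from 250 bases before to 50 bases after the annotated start, were found for 8 of the 10 genes, in 13 windows. Hspa8 and Hsp90aa1 were the other members. The windows were searched on both strands for 3 alternating units, GAANNTTCNNGAA or its reverse complement TTCNNGAANNTTC, and for GAANNTTC, which is its own reverse complement and lies within each 3-unit match. Among 32851 windows of all genes, 0.603% held the 3-unit form and 7.86% the 2-unit form. A window of 7 of the 8 genes held the 2-unit form, and 3 of the 8 held the 3-unit form, namely Hsph1, Hspe1 and Hspd1. A gene is counted here for a match in any of its windows, while the shares over all genes are per window. Hspe1 and Hspd1 are counted for the same stretch of bases, and Hspa1a and Hspa1b for near-identical windows, so these counts are not of separate sites. Other windows of Dnaja1 and Hspd1 held neither form, nor did those of Dnajb1. A match describes letters and does not show binding. The windows of 4 members follow, written 5′ to 3′ on the strand of the gene, with the matches in capitals.
Hsph1, chr5:149636287-149636586, minus strand: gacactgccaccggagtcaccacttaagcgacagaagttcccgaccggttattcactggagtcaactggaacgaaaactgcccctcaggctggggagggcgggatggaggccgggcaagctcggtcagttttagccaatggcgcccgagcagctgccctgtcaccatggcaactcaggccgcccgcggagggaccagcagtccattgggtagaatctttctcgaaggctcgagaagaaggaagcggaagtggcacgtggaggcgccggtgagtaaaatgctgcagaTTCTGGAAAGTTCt
Hspa1a, chr17:34972107-34972406, minus strand: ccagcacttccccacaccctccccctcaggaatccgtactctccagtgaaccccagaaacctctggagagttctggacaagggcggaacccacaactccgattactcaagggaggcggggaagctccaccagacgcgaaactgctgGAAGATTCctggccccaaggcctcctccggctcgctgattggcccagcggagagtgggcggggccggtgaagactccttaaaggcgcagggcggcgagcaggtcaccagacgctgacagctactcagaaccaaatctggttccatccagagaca
Hspb1, chr5:135887669-135887968, plus strand: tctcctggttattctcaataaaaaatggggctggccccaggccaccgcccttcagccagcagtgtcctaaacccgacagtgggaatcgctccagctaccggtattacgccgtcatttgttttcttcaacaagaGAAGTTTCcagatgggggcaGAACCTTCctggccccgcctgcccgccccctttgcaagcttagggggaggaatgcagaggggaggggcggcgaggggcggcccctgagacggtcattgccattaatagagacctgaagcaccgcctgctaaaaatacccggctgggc
Hspe1, chr1:55087898-55088197, plus strand: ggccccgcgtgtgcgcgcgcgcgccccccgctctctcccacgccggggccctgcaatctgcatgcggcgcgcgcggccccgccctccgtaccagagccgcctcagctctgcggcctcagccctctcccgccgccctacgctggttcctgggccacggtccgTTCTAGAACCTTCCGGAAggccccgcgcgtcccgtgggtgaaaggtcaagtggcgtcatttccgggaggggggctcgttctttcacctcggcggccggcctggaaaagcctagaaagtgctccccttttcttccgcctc

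The match in Hsph1 lay downstream of the annotated start, with its first base at position 37 counted from the start. In Hspa1a the 2-unit match began at -104, and in Hspb1 matches began at -117 and -97. The Hspa1b window matched that of Hspa1a at 296 of 300 positions (98.7%) and held the same match at the same place. In Hspe1 a match of each letter order began at -89 and -84, and they overlapped. This stretch lies between Hspe1 and Hspd1, which are transcribed away from each other: a window of Hspd1 on the opposite strand shared 285 bases with that of Hspe1 and held the same overlapping matches.

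Across the arrays, the Cy5 signal was well above background at 58.0% to 69.7% of the probe spots. Over all kept probes, pools of 1 group correlated at r = 0.899 to 0.950 and pools of different groups at 0.862 to 0.922. Replicates 1 and 2 of each group were scanned on one day and replicate 3 of each group on another. The label of the tissue was checked with 10 melanocyte and melanoma genes. Of these, 8 had a kept probe, and their mean log2 ratio lay at 0.34 to 0.40 in HDC-A, 0.51 to 0.76 in HDC-M and 0.19 to 0.42 in HDC-S. Hdc RNA had a mean log2 ratio of 0.46 ± 0.14 in HDC-S tumours, 0.24 ± 0.16 in HDC-A tumours and 0.38 ± 0.28 in HDC-M tumours (SD, n = 3). The groups overlapped, and the Hdc ratio has no firm denominator, since the cultured reference gave 0.97 to 1.05 times the median negative control.

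The first comparison asked how tumours of raised or lowered histamine capacity differ from HDC-M tumours in these chaperones, and HDC-S was also set against HDC-A. HDC-S tumours had higher means than HDC-A tumours at all 17 probes, as had 51.4% of all probes. The 17 probes stand for only 9 genes, several of which varied together, so they are not 17 separate cases. At the brightest probes, 9 of 9 genes had the higher mean in HDC-S than in HDC-A. The mitochondrial genes Hspe1 and Hspd1 rose by 1.29-fold and 1.35-fold there, at the only probes that passed. HDC-A tumours had less Hspd1 RNA than HDC-M tumours at 1 of its 2 probes, at 0.716-fold. Between HDC-S and HDC-M no probe passed. At the brightest probes of Hspa1a, Dnaja1, Hsp90aa1 and Hspb1, HDC-S replicates 2 and 3 lay above every pool of the other groups and replicate 1 did not. At those of Hsph1, Hspa8 and Dnajb1 all 3 HDC-S pools lay above every pool of the other groups.

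In counts, with limma's test and adjustment over all probes, 2 of the 17 probes passed in HDC-S against HDC-A, both higher, where 5.25% of all probes passed and 2.84% passed as higher. In HDC-A against HDC-M 1 of 17 passed, as lower, where 1.44% of all probes passed and 0.67% passed as lower. In HDC-S against HDC-M 0 of 17 passed, against 0.681% of all probes, and 9 of 17 had an unadjusted p up to 0.05 in limma's test, all higher. Of all 26871 probes, 2181 had such a p as higher and 3904 in either direction. The smallest adjusted p in HDC-S against HDC-M was 0.112. Groups did not overlap at 8 of 17 probes in HDC-S against HDC-A, all higher (13.3% of all probes), at 3 in HDC-A against HDC-M, all lower (10.7%), and at 4 in HDC-S against HDC-M, all higher (11.9%). HDC-S had the higher mean at 14 of 17 probes against HDC-M (53.2% of all probes), and HDC-A the lower mean at 13 (48.1%). By gene, at the brightest probes, these were 8 of 9 and 7 of 9. The median difference over the 17 probes was 0.44 in HDC-S against HDC-A, -0.06 in HDC-A against HDC-M and 0.30 in HDC-S against HDC-M, beside medians of 0.00, 0.01 and 0.01 over all probes. These comparisons share groups and are not independent of each other, and neither are probes of the same gene.

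The positive median of HDC-S against HDC-M held under every other processing tried except median centring, where it was -0.14, beside a median of -0.12 over all probes, and 8 of 17 probes were above 0. That of HDC-S against HDC-A stayed at 0.34 to 0.46 under the same alternatives, median centring included, with 15 or more probes above 0.

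**Figure D1:**
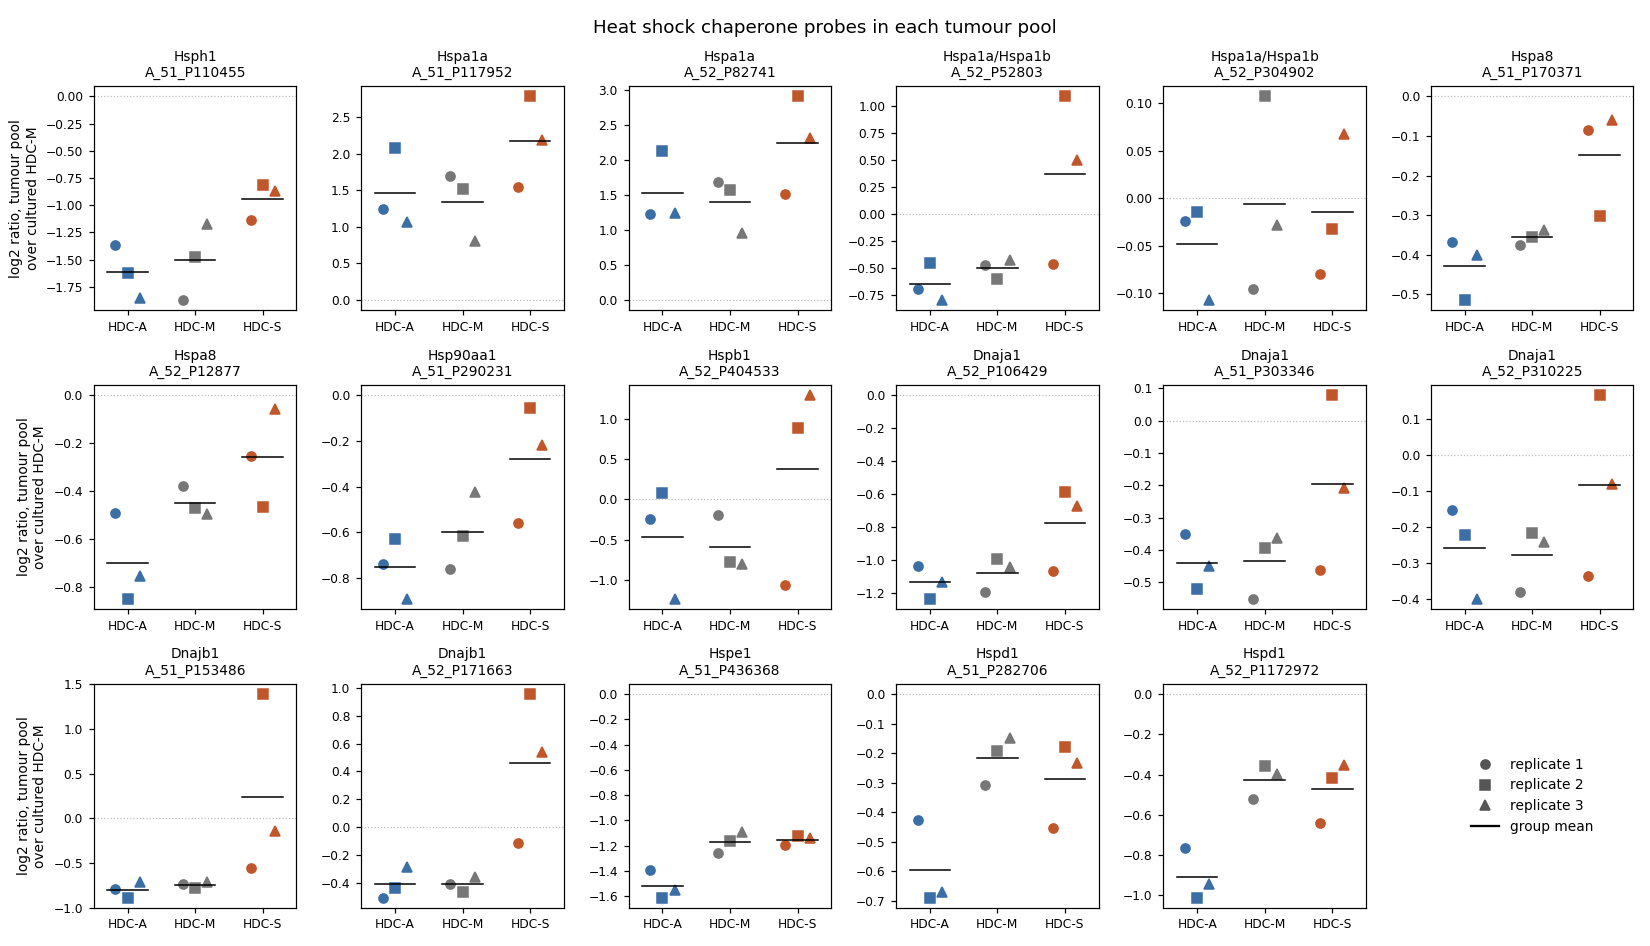
Log2 ratio of tumour pool over cultured HDC-M cells (vertical axis, scaled per probe) for each of the 17 kept probes by group (horizontal axis). Points are pools, shapes mark the replicate number and lines the mean of 3. At the brightest probes of Hspa1a, Dnaja1, Hsp90aa1 and Hspb1 HDC-S replicates 2 and 3 lie above all other pools and replicate 1 does not. In Hspe1 and Hspd1 the HDC-A pools lie low.

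Of the Hsp70 proteins, Hspa1a and Hspa1b encode the stress-inducible form. The brighter of the 2 probes that list Hspa1a alone was A_51_P117952. Its log2 ratios were 1.24, 2.08 and 1.07 in HDC-A, 1.70, 1.52 and 0.81 in HDC-M and 1.54, 2.79 and 2.19 in HDC-S. HDC-S replicates 2 and 3 were the highest of the 9 arrays, HDC-S replicate 1 lay within the range of HDC-M, and the groups overlapped. The difference of HDC-S from HDC-M was 0.83 (SE 0.36, adjusted p = 0.333, exact permutation p = 0.2). The other such probe (A_52_P82741) gave 1.51, 2.91 and 2.31 in HDC-S and a difference of 0.84 (SE 0.36, adjusted p = 0.331). In the reference, both probes were as dim as the negative controls, at 0.98 to 1.11 times their median, while in the tumours they reached 3.08 to 10.9 times it. Their ratios over the culture are therefore set against a reference at background, while differences between tumour groups rest on the Cy5 signal.

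The brighter probe shared by Hspa1a and Hspa1b (A_52_P52803) separated the pools further. Its log2 ratios were -0.70, -0.46 and -0.80 in HDC-A, -0.48, -0.61 and -0.43 in HDC-M and -0.47, 1.09 and 0.49 in HDC-S. HDC-S replicates 2 and 3 stood above every other array, with Cy5 signals of 393 and 281 against 108 to 141 elsewhere, and HDC-S replicate 1 fell among the other groups. The differences were 0.88 from HDC-M (SE 0.31, adjusted p = 0.229) and 1.02 from HDC-A (SE 0.31, adjusted p = 0.0956). The dimmer shared probe (A_52_P304902) had a Cy5 signal well above background on 6 arrays only and stayed between -0.11 and 0.11. Its signal was 1.01 to 1.43 times the median negative control in Cy5 and 0.997 to 1.14 times in Cy3. With both dyes so close to background, this probe is read as neither repeating nor contradicting the brighter one. Whether it can detect the RNA at all was not tested.

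Hspa8 encodes the constitutive Hsc70, which folds new proteins and strips clathrin coats. Its brighter probe (A_51_P170371) gave -0.37, -0.51 and -0.40 in HDC-A, -0.38, -0.36 and -0.34 in HDC-M and -0.08, -0.30 and -0.06 in HDC-S. All HDC-S pools lay above all others, and here replicate 2 was the lowest of the HDC-S pools. The difference of HDC-S was 0.21 from HDC-M (SE 0.08, adjusted p = 0.248) and 0.28 from HDC-A (SE 0.08, adjusted p = 0.0675). The second probe (A_52_P12877) gave 0.19 and 0.44 for these differences, with adjusted p = 0.503 and 0.0633. With median centring the sign against HDC-M turned at both Hspa8 probes, to -0.31 and -0.28.

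Among the partners of Hsp70, Hsph1 encodes Hsp110, a nucleotide exchange factor that also holds unfolded clients. Its log2 ratios were -1.36, -1.62 and -1.85 in HDC-A, -1.87, -1.47 and -1.17 in HDC-M and -1.14, -0.81 and -0.87 in HDC-S. Every HDC-S pool was above every pool of the other groups, by a narrow margin to HDC-M replicate 3. The difference was 0.56 from HDC-M (SE 0.18, 95% interval 0.16 to 0.97, adjusted p = 0.193) and 0.67 from HDC-A (SE 0.18, adjusted p = 0.0664), with an exact permutation p of 0.1 for each, the smallest that 3 against 3 arrays allow. Leaving out HDC-M replicate 1 or 3 brought the difference of HDC-S from HDC-A past the threshold, with an adjusted p of 0.0421 at the lowest. HDC-M is outside that comparison, so the difference itself did not change, only the spread shared by the model and the adjustment.

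Dnajb1 encodes Hsp40, a stress-inducible J-domain protein that delivers clients to Hsp70, and showed the widest spread among the HDC-S pools of the J-domain members. Its brighter probe (A_51_P153486) gave -0.80, -0.89 and -0.72 in HDC-A, -0.74, -0.78 and -0.72 in HDC-M and -0.55, 1.39 and -0.14 in HDC-S. HDC-A and HDC-M were close to each other and all HDC-S pools were higher, with replicate 2 far above. The difference of HDC-S from HDC-M was 0.98 (SE 0.39, adjusted p = 0.292) and fell to 0.40 without HDC-S replicate 2.

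The dimmer Dnajb1 probe (A_52_P171663) gave -0.12, 0.96 and 0.54 in HDC-S, against -0.51 to -0.29 in the other 6 pools, without overlap. Its difference from HDC-M was 0.87 (SE 0.22, adjusted p = 0.112), the smallest adjusted p of the 17 probes, and from HDC-A 0.87 (SE 0.22, adjusted p = 0.0501). Of the 9 fits that leave out an array, 1 passed in each comparison, the one without HDC-S replicate 1, at 1.16 from HDC-M (adjusted p = 0.0436) and 1.16 from HDC-A (adjusted p = 0.00993). In the other fits both differences went down to 0.62, with adjusted p up to 0.308 from HDC-M and 0.149 from HDC-A. HDC-A and HDC-M did not differ detectably, with a difference of 0.00 and a 95% interval of -0.48 to 0.48.

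Dnaja1 encodes a farnesylated J-domain protein of the cytosol. Its brightest probe (A_52_P106429) gave -1.04, -1.23 and -1.13 in HDC-A, -1.19, -0.995 and -1.04 in HDC-M and -1.07, -0.58 and -0.67 in HDC-S. HDC-S replicates 2 and 3 were the highest arrays and HDC-S replicate 1 lay within both other groups. The difference from HDC-M was 0.30 (SE 0.12, adjusted p = 0.29), and the other Dnaja1 probes gave 0.24 and 0.20. All 3 turned negative with median centring, to between -0.20 and -0.14.

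Hsp90aa1 encodes the inducible cytosolic Hsp90. Its log2 ratios were -0.74, -0.63 and -0.89 in HDC-A, -0.76, -0.62 and -0.42 in HDC-M and -0.56, -0.06 and -0.22 in HDC-S. HDC-S lay above HDC-A without overlap, while HDC-S replicate 1 fell below HDC-M replicate 3. The difference was 0.32 from HDC-M (SE 0.13, adjusted p = 0.313, turning to -0.21 with median centring) and 0.47 from HDC-A (SE 0.13, adjusted p = 0.0795). The reference signal of this probe was saturated on 2 arrays, HDC-A replicates 2 and 3, and the Cy5 channel alone, which does not use it, gave 0.43 from HDC-A (adjusted p = 0.0702). No other kept probe of these genes was saturated in either dye.

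Hspb1 encodes Hsp27 (Hsp25 in mouse), a small heat shock protein that binds unfolded clients and actin, and it varied most. It gave -0.25, 0.08 and -1.23 in HDC-A, -0.19, -0.77 and -0.79 in HDC-M and -1.06, 0.89 and 1.29 in HDC-S, a range of 2.52 over the 9 arrays. Pools of the same group lay as far apart as the groups, and HDC-S held both the highest array and, in replicate 1, the second lowest. The difference of HDC-S from HDC-M was 0.96 (SE 0.56, 95% interval -0.30 to 2.21, adjusted p = 0.481), and leaving out 1 array moved it between 0.50 (without HDC-S replicate 3) and 1.68 (without HDC-S replicate 1), without passing.

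In mitochondria, Hspe1 encodes Hsp10, the lid of the folding chamber. Its log2 ratios were -1.39, -1.61 and -1.55 in HDC-A, -1.25, -1.16 and -1.09 in HDC-M and -1.19, -1.13 and -1.14 in HDC-S. All HDC-A pools were below all pools of the other groups, and HDC-M and HDC-S overlapped. Hspe1 rose by 0.37 in HDC-S against HDC-A (SE 0.07, adjusted p = 0.0221, exact permutation p = 0.1). Its difference between HDC-A and HDC-M was -0.35 (SE 0.07, adjusted p = 0.0521), and scale normalization between arrays turned it to 0.059. Between HDC-S and HDC-M it was 0.02, with a 95% interval of -0.14 to 0.18.

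Hspd1 encodes Hsp60, the barrel of the same chamber, and its 2 probes followed Hspe1. The probe A_52_P1172972 gave -0.77, -1.01 and -0.94 in HDC-A, -0.52, -0.36 and -0.40 in HDC-M and -0.64, -0.42 and -0.35 in HDC-S. HDC-A was again the lowest group without overlap. Hspd1 fell by 0.48 on the log2 scale at this probe in HDC-A against HDC-M (SE 0.09, adjusted p = 0.0453, exact permutation p = 0.1) and rose by 0.44 in HDC-S against HDC-A (SE 0.09, adjusted p = 0.0312). The brighter probe (A_51_P282706) gave -0.43, -0.69 and -0.67 in HDC-A, -0.31, -0.19 and -0.15 in HDC-M and -0.45, -0.18 and -0.23 in HDC-S. There HDC-A was below HDC-M without overlap but overlapped HDC-S replicate 1, and the differences of -0.38 (SE 0.10, adjusted p = 0.0885) and 0.31 (SE 0.10, adjusted p = 0.107) did not pass.

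These calls were close to the threshold. The fall of Hspd1 in HDC-A against HDC-M passed in 1 of the 9 fits that leave out an array, the one without HDC-S replicate 1 (adjusted p = 0.0444). That pool is outside this comparison and enters only the spread and the adjustment. The adjusted p of this fall reached 0.169 in the other fits, and its differences ranged from -0.55 to -0.43. In HDC-S against HDC-A, Hspe1 passed in 4 of these 9 fits, not without HDC-A replicate 2 or 3 or any HDC-S pool (adjusted p up to 0.0787), and Hspd1 in 5, not without HDC-A replicate 2 or 3 or HDC-S replicate 2 or 3 (adjusted p up to 0.111). With a replicate block Hspe1 still passed (adjusted p = 0.0481) and Hspd1 did not (adjusted p = 0.0581), so that 1 of the 17 probes passed. Within the first scan day, which holds 2 pools per group, no probe of these genes passed, and the differences of HDC-S from HDC-A were 0.34 for Hspe1 and 0.36 for Hspd1 (A_52_P1172972).

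**Figure D2:**
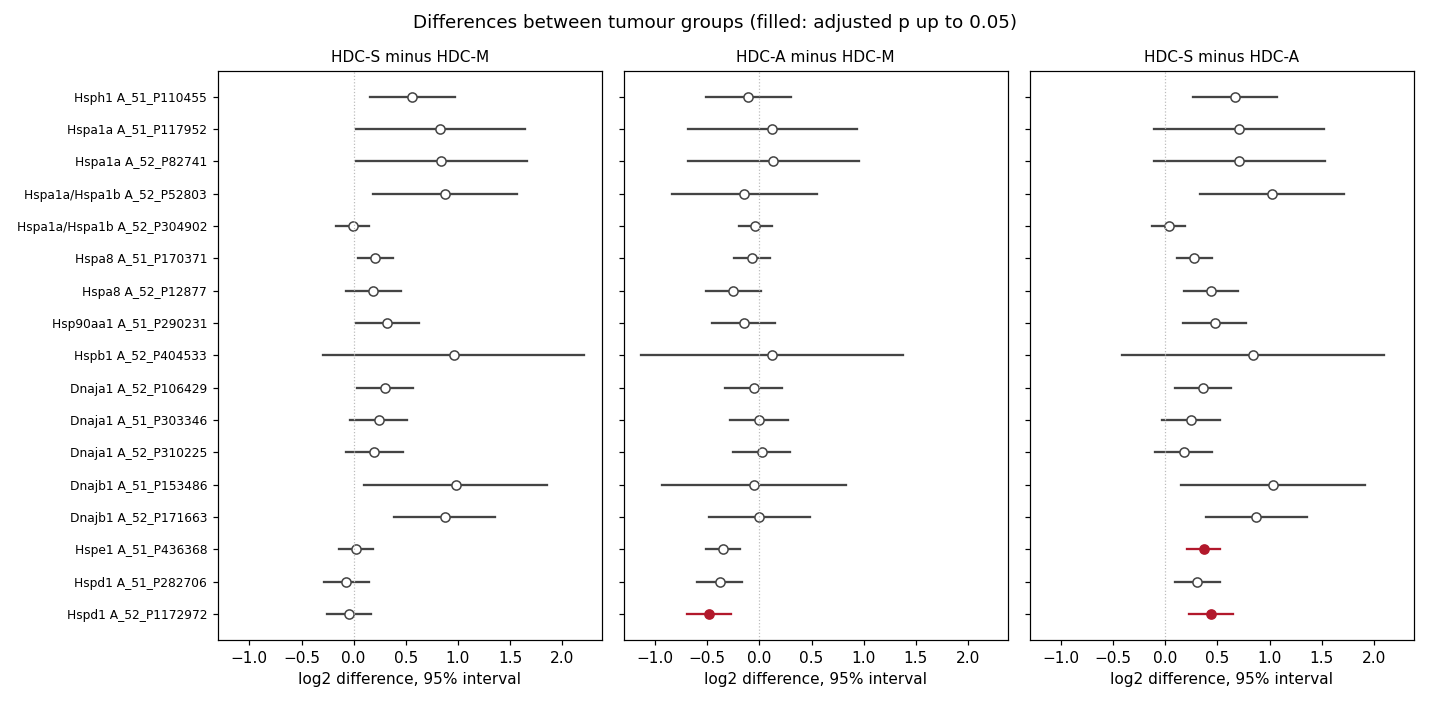
Log2 difference between tumour groups (horizontal axis) with its 95% interval for each of the 17 kept probes, in 3 panels for the 3 pairs of groups. Filled points passed at an adjusted p up to 0.05: Hspd1 (A_52_P1172972) in HDC-A against HDC-M, and Hspe1 and the same Hspd1 probe in HDC-S against HDC-A. With median centring 9 of the 17 probes lie below 0 in the panel of HDC-S and HDC-M.

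Averaged over the brightest probe of each of the 9 genes, the mean log2 ratio was -0.57, -0.56 and -0.82 in the HDC-A pools, -0.55, -0.54 and -0.55 in the HDC-M pools and -0.51, 0.22 and 0.02 in the HDC-S pools. The HDC-M pools were nearly equal, HDC-S replicate 1 lay just above them, and HDC-S replicates 2 and 3 lay far above. HDC-S replicate 2 was the highest array for 5 of the 9 genes and among the highest 2 for 8, and replicate 3 was among the highest 2 for 7. HDC-A replicate 2 was the lowest array for 5 genes. Replicates 1 and 2 of HDC-S were scanned on the same day, and the cause of the gap between them was not tested.

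The genes fell into patterns that differed in degree. Over the 9 arrays, which share the groups, the reference and the scan days, Hspe1 and Hspd1 varied together most closely (r = 0.94, and 0.88 after the group means were removed). Hsph1 and Hsp90aa1 had r = 0.91, Hsp90aa1 and Dnaja1 0.87, Dnaja1 and Dnajb1 0.85, and Hspa1a and Hspb1 0.81, and after the group means were removed these pairs had 0.69 to 0.78. By that measure Dnaja1 and Hspd1 were as close as Hspe1 and Hspd1 (0.88), and Hsph1 had 0.83 with Hspe1 and 0.82 with Hspd1. Hspa8 stood apart, with r = 0.44 to the mean of the other members and -0.61 after the group means were removed, the lowest of the 9 genes on both counts. These correlations are descriptions over few arrays.

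**Figure D3:**
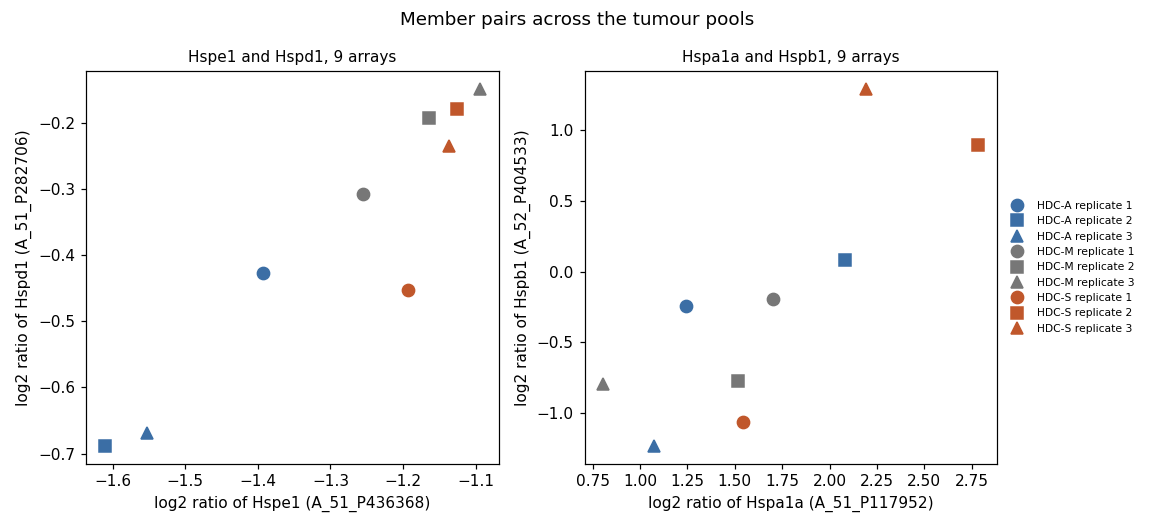
Log2 ratio of tumour pool over culture for Hspe1 (horizontal) against Hspd1 (vertical), left, and for Hspa1a (horizontal) against Hspb1 (vertical), right. Each point is 1 of the 9 pools, coloured by group. On the left the HDC-A pools lie at the lower left (Hspe1 from -1.61 to -1.39), and on the right HDC-S replicates 2 and 3 lie at the upper right, apart from the other 7 pools.

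The next comparison asked how HDC-M tumours differ from the same cells in culture. Hsph1 and Hspe1 were lower in the tumours, at 0.352-fold and 0.444-fold of the reference. Dnaja1 was at 0.474-fold at its brightest probe and at 0.739-fold and 0.824-fold at the others. The probes of Hspa1a disagreed. The 2 that list Hspa1a alone were higher in the tumours. The brighter one shared with Hspa1b had a lower mean and did not pass. In all, 14 of 17 probes passed, 12 as lower and 2 as higher, where 57.9% of all probes passed, 23.9% as lower and 34% as higher. This comparison has no dye swap and a single reference, so a dye effect and the spread of the culture remain in it.

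For Hsph1 the mean log2 ratio was -1.50 (SE 0.13, adjusted p = 7.5e-06), for Hspe1 -1.17 (SE 0.05, adjusted p = 1.44e-07) and for the brightest Dnaja1 probe -1.08 (SE 0.09, adjusted p = 4.73e-06). These 3 stayed below 0 with median centring, at -0.69, -0.37 and -0.27, but no longer passed. The other Dnaja1 probes fell too (-0.44 and -0.28), as did Dnajb1 at both probes (-0.75 and -0.41), Hsp90aa1 (-0.60), Hspa8 (-0.36 and -0.45) and Hspd1 (-0.22 and -0.43), and median centring turned all of these to between 0.062 and 0.59. For Hsp90aa1 the reference signal on the HDC-M arrays was 64024 to 64820. It was not marked as saturated but lay close to the marked 65291 and 65329 of HDC-A, so this ratio may be compressed. Hspb1 had a mean of -0.59 and did not pass (SE 0.39, adjusted p = 0.228). Median centring moved the median of all probes from 0.05 to 0.27. Of the 12 lower calls 9 changed sign with it, none stayed past the threshold as lower, and 1 passed as higher, Dnaja1 at A_52_P310225 (0.44, adjusted p = 0.0466).

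The 2 probes that list Hspa1a alone passed as higher under every alternative. Their reference was at background, however, so the size of the difference follows the background step. The log2 difference was 1.34 for A_51_P117952 with normexp, 1.21 without background correction and 2.91 in the authors' value table. For A_52_P82741 it was 1.40, 1.25 and 2.45 in the same order. The brighter shared probe (A_52_P52803), whose reference signal was 1.56 to 1.75 times the median negative control, had a difference of -0.51 (SE 0.22, adjusted p = 0.0722). It passed as lower without background correction (-0.49, adjusted p = 0.0469), in the authors' value table (-1.02, adjusted p = 0.0326), with scale normalization (-0.61, adjusted p = 0.0327) and with the HDC-M arrays alone (adjusted p = 0.00142), and was at -0.054 with median centring. The dimmer shared probe was at -0.0058, and passed as lower with median centring (-0.19, adjusted p = 0.0371).

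**Figure D4:**
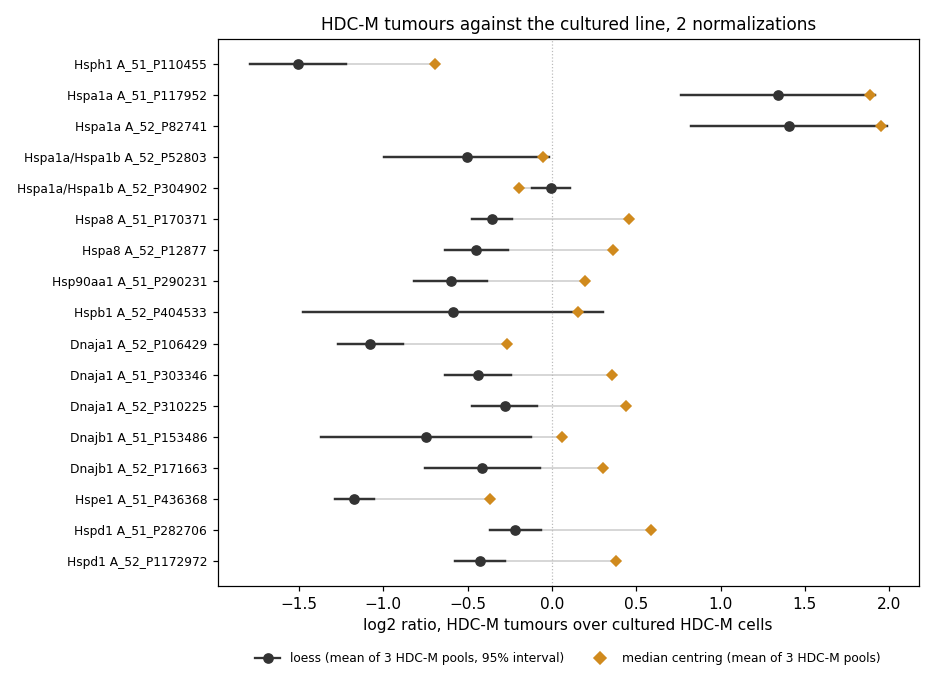
Mean log2 ratio of HDC-M tumours over cultured HDC-M cells (horizontal axis) for the 17 kept probes. Dark points with 95% intervals are loess values and diamonds the values after median centring, each from 3 pools. Hsph1, Hspe1 and the brightest Dnaja1 probe stay below 0 under both. The 2 probes that list Hspa1a alone stay above 0 under both, while most others change sides.

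The wider chaperone network was read through 87 genes in 10 lists, of which 81 had a kept probe. In HDC-S against HDC-A 11 of the 81 passed, 9 higher and 2 lower, where 5.25% of all probes passed and 2.84% as higher, and the median over the 81 was 0.08. The HSF1 gene itself was among them: Hsf1, the master regulator of the heat shock response, rose by 0.57 (SE 0.10, adjusted p = 0.0139), from -0.43 ± 0.12 in HDC-A to 0.14 ± 0.07 in HDC-S (SD, n = 3). Hsbp1, whose product binds HSF1 trimers and restrains them, also rose, by 0.30 (adjusted p = 0.0227). Of the heat shock regulators 2 of 4 passed, and Hsf2 and Hsf4 did not.

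Of the 8 kept genes of mitochondrial protein quality control 1 passed in HDC-S against HDC-A, Grpel2, an exchange factor of the mitochondrial Hsp70, which rose by 0.38 (adjusted p = 0.0167). Hspa9, the mitochondrial Hsp70 (mortalin), rose by 0.37 (adjusted p = 0.0244) and Dnaja3, the mitochondrial J-domain protein Tid1, by 0.26 (adjusted p = 0.0346). In the cytosol, Hspa14 rose by 0.28, the Hsp90 ATPase activator Ahsa1 by 0.27 and the chaperonin subunits Cct4 and Cct7 by 0.46 and 0.27, Cct4 with 2 HDC-A pools since 1 spot was marked as an outlier. Dnajc12 fell by 0.77 on the log2 scale (adjusted p = 0.00441) and Dnajc19, a subunit of the mitochondrial import motor, by 0.45 (adjusted p = 0.00689). Dnajc12 and Dnajc19 passed in all 9 fits without 1 array and Hsf1 in 8, all but the one without HDC-S replicate 3 (adjusted p = 0.0589). Without that pool 2 of the 11 genes still passed, Dnajc12 and Dnajc19, and with a replicate block 7 did. With median centring 0 of the 11 passed and all kept their sign.

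Between HDC-S and HDC-M 1 of 81 genes passed, against 0.681% of all probes. It was Hsbp1, which rose by 0.40 (SE 0.06, adjusted p = 0.029) and turned to -0.04 with median centring. Its call was lost without any HDC-S or HDC-M pool in turn (adjusted p up to 0.122). Hsf1 had a difference of 0.38 (adjusted p = 0.123). By list, the smallest p belonged to Dnajc19 (-0.27), Hspb8 (-0.53), Ahsa1 (0.24), Pfdn5 (0.31), Stub1 (-0.19), Htra2 (-0.15), Cct5 (0.35, with 1 HDC-M pool), Hspa2 (0.43) and Trap1 (0.15), none past the threshold. In HDC-A against HDC-M 2 of 81 passed, against 1.44% of all probes: Dnajc12 rose by 0.60 (adjusted p = 0.02) and Dnaja3 fell by 0.29 (adjusted p = 0.045), the latter in none of the fits without 1 array.

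**Figure D5:**
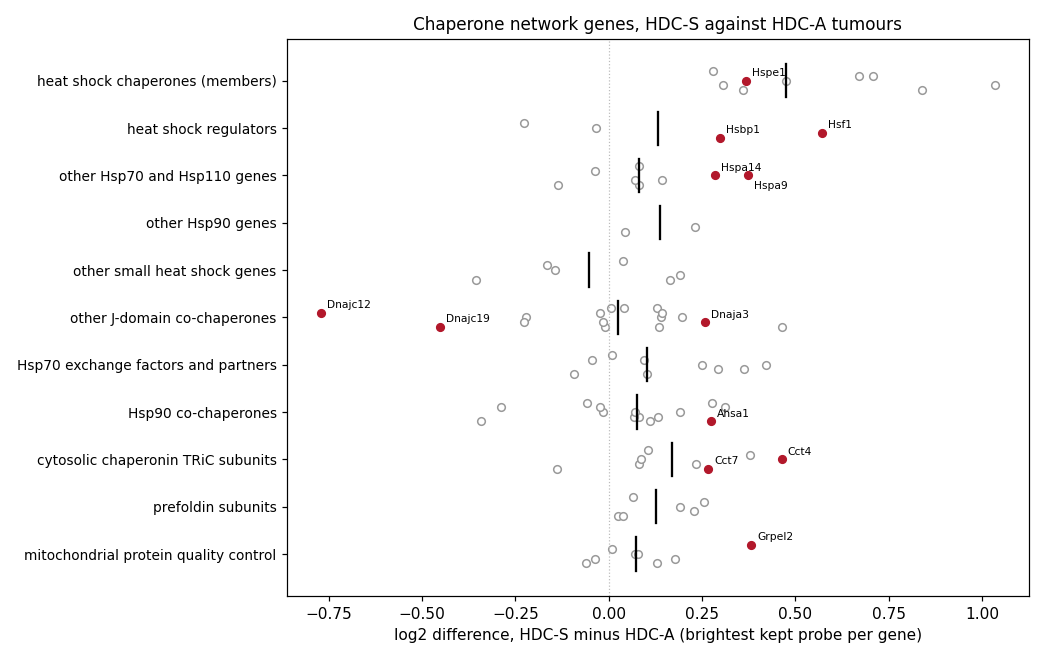
Log2 difference of HDC-S from HDC-A tumours (horizontal axis) for the 9 members with a probe of their own, at their brightest probe, and for 81 other chaperone genes by list. Each point is a gene, filled and named where it passed, and bars mark list medians. All 9 members lie above 0, as do the 6 prefoldin subunits and the 2 other Hsp90 genes, and the remaining lists lie on both sides of it.

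Against culture, 57 of the 81 genes passed in HDC-M tumours, 39 lower and 18 higher, where 57.9% of all probes passed, 23.9% as lower and 34% as higher. The lower calls depended on centring: with median centring 25 of the 39 changed sign and 4 still passed as lower, while 17 of the 18 higher calls still passed as higher. The lowest were Hspa4l, an Hsp110 relative of Hsph1, at -1.46, the J-domain gene Dnajb4 at -1.26, Hspa9 at -1.24 and Lonp1, a mitochondrial protease, at -1.12. Of the mitochondrial protein quality control genes 7 of 8 fell, and with median centring 6 of these 7 changed sign, all but Lonp1, and none passed as lower. The co-chaperones Bag3, which links Hsp70 to autophagy, and Chordc1 fell by 0.88 on the log2 scale each. Among the genes that rose were Fkbp4, an Hsp90-bound immunophilin, at 0.90, Dnajc5 at 0.90 and the constitutive Hsp90 gene Hsp90ab1 at 0.62. Hsp90aa1 went the opposite way with loess, but with median centring it was at 0.20, on the same side as Hsp90ab1. The reference signal of Hsp90aa1 lay close to saturation on the HDC-M arrays, as given above.

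The probes most like the mean of the members over the 9 arrays, among 16952 compared, were those of Rad21 (r = 0.95), Ptpn5 (0.95), Tars (0.94), Rab38 (0.94) and Dnajb4 (0.93). Usp38, Slc30a1, Tle3, Txnl4a and Kif5b followed, with r from 0.91 to 0.93. They were picked for this likeness.

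Marker lists of other cell types were set beside these results. Of 10 keratinocyte genes 9 had a kept probe, and their mean log2 ratio was 0.08 to 1.47 in HDC-S, below the 2.02 to 3.40 of HDC-M and overlapping the 1.36 to 2.64 of HDC-A. HDC-S replicate 1 had the lowest keratinocyte and the lowest melanocyte value of the 9 arrays (0.08 and 0.19). Its mean of the members (-0.51) was the lowest in HDC-S but lay above every HDC-A and HDC-M pool. The melanocyte list was highest in HDC-M and overlapped between HDC-S and HDC-A, with 1 of 8 genes lower in HDC-S than in HDC-M and 2 lower than in HDC-A past the threshold. The muscle list lay at 0.77 to 2.57 in HDC-S, 1.44 to 2.01 in HDC-M and 1.79 to 3.41 in HDC-A, and macrophage, T and NK cell, endothelial, fibroblast and erythroid lists overlapped between all groups. Over the 9 arrays the 8 lists correlated with the mean of the members at r from -0.24 to 0.23. Apart from the melanocyte list no marker gene passed between groups, and the part of other cells in the chaperone differences was not tested.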

How the data were processed

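Agilent arrays in 2 colours compared 9 tumour RNA pools, 3 per group, with a common cultured reference. The deposited scanner files hold the intensity and the local background of each spot for both dyes, and per the file headers Feature Extraction 8.5.1.1 wrote them. The authors' deposited value table is in log10 units and equals the scanner's log10 ratio of Cy5 over Cy3 at all 43790 spots of every array, within 1e-06. Its scale, centring and direction are thereby known, and Cy5 is the tumour per the labels.

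Signals were corrected by normexp (offset 50) and normalised by loess within arrays with limma 3.58.1 in R 4.3.3. Control and outlier spots had weight 0 and were left out, and spots of a probe were averaged. Of 41174 probes, 14303 too dim in Cy5 were left out. The mark for signals well above background was not used in Cy3, where dim probes carry it too. Probes were named through RefSeq accessions (22072, and 142 by another accession), symbols (615) or synonyms (574), and 17771 stayed unnamed. The files name no genome build.

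All 9 arrays entered 1 limma model (lmFit, eBayes) of log2 ratios without a block, with Benjamini-Hochberg adjustment over the kept probes and a threshold of 0.05. Single probes were also tested with an exact two-sided permutation over 3 against 3 arrays, which cannot go below 0.1. Precision is limited by the number of arrays. Same-numbered pools deviated together with r of 0.11 to 0.55 between HDC-S and HDC-A, and of -0.19 to 0.15 in the other pairs of groups, and the labels state random pairing of tumours, so the block is given as an alternative and beside HDC-S against HDC-A. All kept probes of the members are named, and of the network lists the genes that passed between tumour groups, those with the smallest p of each list, and examples against culture. The members and lists were chosen with earlier results of these data known.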

Additional observations from a re-analysis of the deposited data

How the results depend on the processing

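Counts are given in the order HDC-S against HDC-M, HDC-A against HDC-M and HDC-S against HDC-A, and the cause of a change was not tested. Over member probes (0, 1 and 2), the second of these had 2 calls with the Cy5 channel alone, with a filter on all 9 arrays or with no filter, and 0 with the authors' value table, median centring, scale normalization, a replicate block, scan day as a block, the first scan day alone or the 2 groups alone. HDC-S against HDC-A had 1 call with a replicate block or the 2 groups alone, and 0 with the authors' value table, median centring, scale normalization or the first scan day. Against culture, 2 of the 14 calls kept their sign and threshold with median centring, which made 4 calls in all, 1 of them with the opposite sign.

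Over the 81 network genes (1, 2 and 11), the counts were 2, 3 and 14 without background correction, 0, 0 and 2 with the authors' value table, 0, 0 and 0 with median centring and also with the first scan day alone, 0, 2 and 3 with scale normalization, 0, 2 and 4 with the Cy5 channel alone, 0, 1 and 7 with a replicate block, 1, 1 and 8 with scan day as a block and 0, 1 and 4 with the 2 groups alone. Over all 26871 probes (183, 387 and 1412) they were 315, 571 and 1710 without background correction, 7, 18 and 392 with the authors' value table, 5, 2 and 4 with median centring, 39, 54 and 165 with scale normalization, 28, 369 and 782 with the Cy5 channel alone, 70, 187 and 1123 with a replicate block, 85, 189 and 1150 with scan day as a block, 30, 5 and 9 with the first scan day alone and 12, 86 and 740 with the 2 groups alone.

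Without 1 array, member calls ranged from 0 to 1 in HDC-S against HDC-M, 0 to 1 in HDC-A against HDC-M and 0 to 5 in HDC-S against HDC-A, where HDC-S replicate 1 left out gave 5 and HDC-S replicate 3, HDC-A replicate 2 or HDC-A replicate 3 left out gave 0. Network calls ranged from 0 to 1, 0 to 1 and 3 to 11, and calls over all probes from 4 to 189, 21 to 218 and 455 to 1389.

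Single differences that changed sign were small or depended on centring. In HDC-S against HDC-M median centring gave -0.18 for Dnaja1 (A_52_P106429), -0.21 for Hsp90aa1, -0.31 for Hspa8 (A_51_P170371) and -0.49 for Hspe1, and Hspe1 was also -0.033 without background correction, -0.048 in the authors' value table and -0.036 with the Cy5 channel alone. Scale normalization gave 0.071 for Hspd1 (A_52_P1172972). Without 1 array Hspe1 ranged from -0.023 to 0.058, Hspd1 (A_51_P282706) from -0.13 to 0.0091 and Hspd1 (A_52_P1172972) from -0.11 to 0.040. In HDC-S against HDC-A Hspb1 was -0.0045 within the first scan day.

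Between HDC-A and HDC-M scale normalization gave 0.32 for Hsph1, 0.30 for Dnaja1 (A_52_P106429), 0.19 and 0.12 for Dnajb1 (A_51_P153486 and A_52_P171663), 0.059 for Hspe1, 0.048 for Hspa8 (A_51_P170371), 0.018 for Hsp90aa1 and -0.19 for Hspa1a (A_51_P117952). The Cy5 channel alone gave 0.11 for Hsph1, 0.070 for Dnaja1 (A_52_P106429), 0.13 for Dnajb1 (A_51_P153486), 0.027 for Hspa8 (A_51_P170371), -0.15 for Hspa1a (A_51_P117952) and -0.012 for Hspb1. Median centring gave -0.14 for Hspa1a (A_51_P117952) and -0.24 for Hspb1. Without background correction Hspa1a (A_51_P117952) was -0.072 and Dnajb1 (A_52_P171663) 0.028, which was 0.012 in the authors' value table. On the first scan day alone Hsp90aa1 was 0.0075 and Hsph1 0.18. Without 1 array Hsph1 ranged from -0.29 to 0.061, Hspa1a (A_51_P117952) from -0.18 to 0.32, Hspb1 from -0.15 to 0.50 and Dnajb1 (A_52_P171663) from -0.063 to 0.048.

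Against culture, median centring gave 0.062 and 0.30 for Dnajb1 (A_51_P153486 and A_52_P171663), 0.20 for Hsp90aa1, 0.46 for Hspa8 (A_51_P170371), 0.15 for Hspb1 and 0.59 and 0.38 for Hspd1 (A_51_P282706 and A_52_P1172972). Of 869 recomputed differences of 11 probes followed through the alternatives, 745 kept their sign and side of the threshold, 62 lost a call, 13 gained one and 49 changed sign. Signal over background limits Hspa1a and Hspa1b most.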
